A study of Homo sapiens with 12 samples.

Results

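The semaphorins, their plexin receptors and the neuropilin co-receptors were analysed in CAL27 and HSC3 cells before and after DOX-induced silencing of MUC1. The genes were taken by symbol, as every SEMA3 to SEMA7 gene, every plexin of the A to D series, and NRP1 and NRP2, which gave 31 genes of the 39368 symbols counted. Of these, 20 encode semaphorins, 9 encode plexins and 2 encode neuropilins. The family was chosen by a measured value, the DOX response of SEMA7A in CAL27 cells, which was among the largest rises there. The CAL27 response is therefore given as a description, with no p for any member, and so is the vehicle level of SEMA7A. Counts of CAL27 members past the threshold stand beside the share of all genes, and nothing is read from them. The HSC3 response and the other differences between the lines were tested.

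Semaphorins were first described as axon guidance cues and also act on epithelial, endothelial and immune cells. Class 3 semaphorins are secreted and mostly signal through a neuropilin, which binds the ligand, and a plexin of the A type, which carries the signal; SEMA3E is an exception that binds plexin D1 directly. Class 4 members are transmembrane proteins that mainly engage plexins of the B type, class 5 members carry thrombospondin repeats, class 6 members bind plexins of the A type, and SEMA7A is held at the surface by a GPI anchor and binds plexin C1 and the β1 integrins. Plexins act through an intracellular GAP domain on RAS-related GTPases and on the actin cytoskeleton. Neuropilins also bind VEGF family ligands.

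CAL27 and HSC3 are HPV-negative lines derived from squamous carcinomas of the tongue, and both carry a doxycycline-inducible shRNA against MUC1 (tet-MUC1shRNA). Each line was treated for 7 days with vehicle (0.1% DMSO) or with 500 ng/ml DOX, with 3 libraries in each of the 4 groups, CAL27 vehicle, CAL27 DOX, HSC3 vehicle and HSC3 DOX. CAL27 cells were grown in DMEM and HSC3 cells in MEM, each with serum, and the counts of each line came in a separate table. The line, its medium and any difference in library handling therefore cannot be told apart in the differences between the lines. No DOX-treated library with a control shRNA was analysed here, so DOX itself and the silencing of MUC1 cannot be told apart.

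Library totals ran from 97477659 to 126328662 counts in CAL27 vehicle, 92866845 to 117677241 in CAL27 DOX, 89730914 to 130393198 in HSC3 vehicle and 134231542 to 169065103 in HSC3 DOX. The estimated number of counts that stand for 1 RNA molecule was 2.45 to 3.33 in the CAL27 libraries. It was 6.69, 4.18 and 7.43 in HSC3 vehicle and 17.2, 8.93 and 11.3 in HSC3 DOX, so HSC3 DOX replicate 1 held the fewest molecules for its depth and also the fewest genes with a count, 19128. All 8 squamous epithelial markers were above 1 CPM (counts scaled to a fixed library size) in every group. KRT5 was the most abundant of them, at 3701 CPM in CAL27 vehicle and 2887 CPM in HSC3 vehicle. Some markers of other cell types were also above 1 CPM, at the far lower levels given below.

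MUC1 was lowered by DOX in both lines. In CAL27 cells it was 58.4, 53.1 and 54.3 CPM with vehicle and 2.92, 2.76 and 3.25 CPM with DOX. In HSC3 cells it started far lower, at 1.66, 1.97 and 1.64 CPM, and was 0.310, 0.267 and 0.132 CPM with DOX, a log2 fold change of -2.88 (SE 0.376, edgeR adjusted p = 0.000202). The groups did not overlap in either line. The HSC3 DOX levels rest on 46, 36 and 16 counts, which by the counts per molecule above stand for only a few molecules.

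With vehicle, members of the family differed between the lines in both directions, as most genes did. Of 30 members tested between HSC3 and CAL27 vehicle, 14 were higher in HSC3 (46.7%, beside 34.7% of all genes tested) and 13 were lower (43.3%, beside 37.1%), counts that include SEMA7A. Past 2-fold there were 8 higher, beside 14.2% of all genes, and 7 lower, beside 20.5%. The libraries of the lines did not overlap for 14 members higher in HSC3, beside 35.9% of all genes, and for 14 lower, beside 40.7%. Each of these counts of lower members includes SEMA3E, SEMA3G and SEMA5B. These genes passed the count filter through CAL27 alone, so their direction was fixed in advance. The median log2 difference over all genes was -0.0959 with TMM scaling and -0.369 with library totals, and with library totals the counts of members were 11 higher and 15 lower, beside 26.0% and 47.4% of all genes. Where the difference of a gene is given below, it is on the TMM scale and is to be read against that median.

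The order of the receptors differed between the lines. Per kilobase of exon, PLXNB2, the broadly expressed receptor of class 4 semaphorins, was the most abundant member in CAL27 vehicle at 48.1 ± 1.14 CPM per kb (SD, n = 3). In HSC3 vehicle it was at 22.3 ± 1.49 CPM per kb, within the spread of PLXNA1, a plexin that pairs with neuropilins, at 22.4 ± 2.37. The log2 difference of PLXNB2 between the lines was -1.10 (SE 0.0479, edgeR adjusted p = 2.69e-10). PLXNA2 differed the other way, at 30.4, 34.6 and 30.8 CPM in CAL27 and 139, 128 and 128 CPM in HSC3, a log2 difference of 2.04 (SE 0.0581, edgeR adjusted p = 4.54e-12). PLXNA1 was higher in HSC3 by 0.93 (SE 0.0636), PLXNB1 by 0.41 (SE 0.0657) and PLXNC1, the receptor of SEMA7A, by 1.13 (SE 0.0933) on the log2 scale. With library totals PLXNB1 was higher by 0.14 (edgeR adjusted p = 0.0715) and no longer passed. PLXNA3 and PLXND1 were lower, at -0.46 (SE 0.0721) and -0.81 (SE 0.0826). PLXNB3, at 5.45 CPM in HSC3 and 5.75 CPM in CAL27, did not pass the test.

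The sharpest receptor difference was in the neuropilins. NRP1, which binds class 3 semaphorins and VEGFA, was 37.1, 37.3 and 35.8 CPM in CAL27 vehicle and 309, 272 and 289.9 CPM in HSC3 vehicle. This was a 7.91-fold higher level in HSC3 (log2 difference 2.98, SE 0.0513, edgeR adjusted p = 6.41e-14), and NRP1 ranked 2 of the 31 members per kb in HSC3 and 8 in CAL27. NRP2, which binds SEMA3F and VEGFC, was slightly lower in HSC3, at 25.5 ± 1.91 CPM against 32.4 ± 0.414 CPM (log2 difference -0.34, SE 0.0615, edgeR adjusted p = 0.000235). Neuropilins summed to 27.0 ± 1.495 CPM per kb in HSC3 vehicle, of which NRP1 made up 93.2%, and to 5.52 ± 0.0994 in CAL27 vehicle, of which it made up 57.8%. Per kb of the longest transcript these sums were 53.1 ± 2.91 and 11.1 ± 0.198, with NRP1 at 92.8% and 56.2%, and NRP1 ranked 1 in HSC3 vehicle.

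Among the secreted ligands, SEMA3C was the most abundant per kb of exon in both lines. It was 72.8, 72.2 and 76.2 CPM in CAL27 vehicle and 198, 202 and 201 CPM in HSC3 vehicle, with no overlap and a log2 difference of 1.44 (SE 0.0389, edgeR adjusted p = 2.82e-12). It made up 47.6% of the summed class 3 level per kb in CAL27 and 69.7% in HSC3. SEMA3F was also higher in HSC3 (log2 difference 1.07, SE 0.0603), as were SEMA3B (2.35, SE 0.132) and SEMA3D (1.00, SE 0.109), each with non-overlapping groups. SEMA3A, the founding growth cone collapsing ligand, was lower in HSC3, at 54.3 ± 2.36 CPM against 78.7 ± 0.499 CPM. SEMA3E and SEMA3G had hardly any counts in HSC3. SEMA3E had 1133, 1041 and 1134 counts in CAL27 vehicle and 10, 4 and 0 counts in HSC3 vehicle. SEMA3G had 35, 40 and 27 counts in CAL27 vehicle and none in any of the 6 HSC3 libraries.

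Of the membrane-bound ligands, SEMA4B was the most abundant in each line and differed little, at 154 ± 4.24 CPM in CAL27 and 131 ± 7.79 CPM in HSC3 (log2 difference -0.24, SE 0.0467). SEMA4D, the ligand of plexin B1 that is also shed from cells, was 54.7, 54.5 and 53.2 CPM in CAL27 and 17.6, 17.7 and 16.3 CPM in HSC3, a log2 difference of -1.65 (SE 0.0538, edgeR adjusted p = 1.61e-11). SEMA4C was lower in HSC3 by -0.78 (SE 0.0727), whereas SEMA4A (0.80, SE 0.0621) and SEMA4F (0.28, SE 0.0835) were higher, the last with a log2 difference of 0.0072 under library totals. SEMA4G did not pass the test (-0.65, SE 0.277, edgeR adjusted p = 0.0502), and 28.0% of its exons lie under genes on the opposite strand, MRPL43 among them. SEMA6B was the leading class 6 ligand in CAL27 at 9.22 ± 0.104 CPM and was 0.778 ± 0.183 CPM in HSC3 (log2 difference -3.58, SE 0.155, edgeR adjusted p = 2.58e-10). SEMA6C was lower in HSC3 too (-2.44, SE 0.357). SEMA6D was higher by 0.38 (SE 0.148, edgeR adjusted p = 0.0368), and with the replicate number as a block its adjusted p was 0.0625.

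Class 5 divided the lines. SEMA5A was 0.457, 0.277 and 0.412 CPM in CAL27 vehicle and 4.27, 6.07 and 6.35 CPM in HSC3 vehicle, a 14.4-fold higher level (log2 difference 3.85, SE 0.221, edgeR adjusted p = 4.15e-09). SEMA5B had 47, 75 and 36 counts in CAL27 vehicle and 0, 2 and 0 in HSC3 vehicle. PLXNA4 and SEMA6A were near the limit of detection in both lines, with at most 14 and 66 counts in any library. SEMA7A was 3.39, 2.95 and 2.97 CPM in CAL27 vehicle and 13.4, 14.0 and 12.9 CPM in HSC3 vehicle, 3.10 ± 0.245 against 13.4 ± 0.540 CPM.

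**Figure D1:**
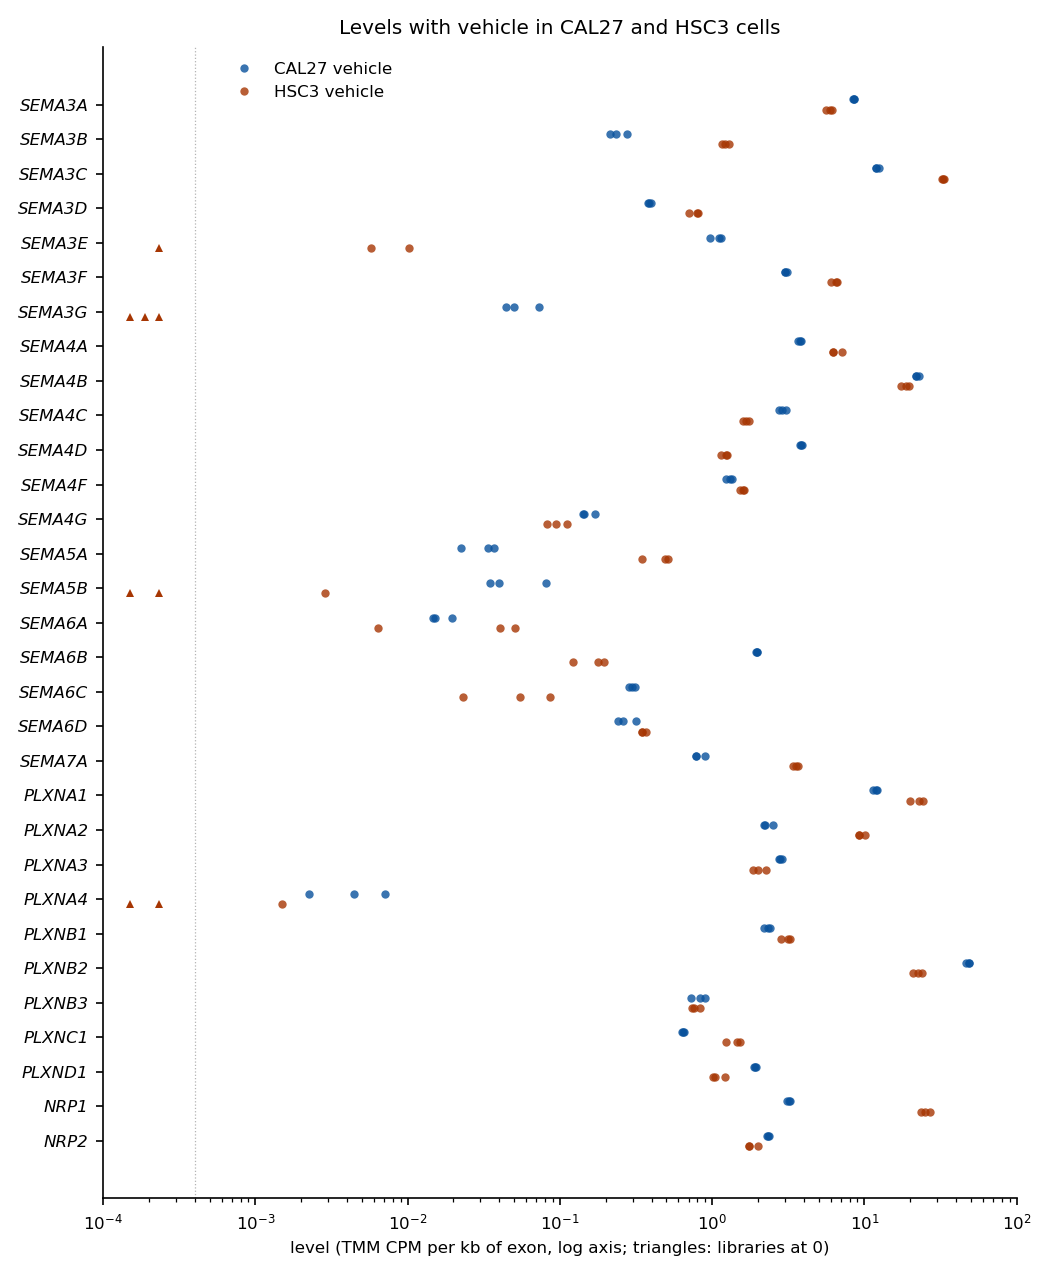
Level of each of the 31 members in each vehicle library, as CPM per kb of exon on a log axis, with CAL27 in blue, HSC3 in brown and libraries at 0 drawn as triangles left of the dotted line. NRP1, SEMA5A, SEMA3B and SEMA7A lie to the right in HSC3, and SEMA3E, SEMA3G, SEMA5B and SEMA6B lie to the left.

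In HSC3 cells, DOX lowered much of the family. Of 27 members tested, 15 fell (55.6%), beside 15.4% of all 18021 genes tested, and 1 rose, beside 13.0%. The remaining 11 did not pass the test. Past 2-fold, 8 fell and none rose, beside 4.40% and 1.58% of all genes. The DOX libraries were all below the vehicle libraries for 18 members, beside 22.5% of all genes, and all above them for 1, beside 20.2%. The median log2 fold change of the 27 members was -0.575, and that of all genes was -0.00973. The 4 members not tested were PLXNA4, SEMA3E, SEMA3G and SEMA5B, whose counts were too low in HSC3 cells; SEMA3E and SEMA5B had 102 and 18 counts in HSC3 DOX replicate 1 and 0 in the other 2 DOX libraries. Without HSC3 DOX replicate 1, 19 members fell and 2 rose, SEMA7A and PLXNA2, beside 19.3% and 17.5% of all genes in that fit, and with counts divided by the estimated counts per molecule of each library 18 of 24 tested fell and 1 rose, beside 21.9% and 18.9%. In bulk RNA, a smaller share of cells that express a gene and less of its RNA per cell cannot be told apart.

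Of the 5 secreted ligands tested, 3 fell, the most abundant among them, beside 15.4% of all genes. SEMA3C, the most abundant semaphorin per kb in HSC3 vehicle, was 198, 202 and 201 CPM with vehicle and 90.4, 69.6 and 72.0 CPM with DOX. It fell by 1.38 on the log2 scale (SE 0.0903, edgeR adjusted p = 1.53e-06), to less than any vehicle library in each DOX library. SEMA3D fell from 6.57, 5.84 and 6.69 CPM to 2.26, 2.27 and 2.04 CPM, a log2 fold change of -1.54 (SE 0.157, edgeR adjusted p = 3.36e-05). SEMA3F, a ligand of NRP2 that was isolated from a region often lost in lung cancer, fell from 31.3, 32.0 and 29.3 CPM to 13.6, 18.3 and 15.7 CPM (-0.97, SE 0.117, edgeR adjusted p = 0.000117). SEMA3A (-0.17, SE 0.0800, edgeR adjusted p = 0.145) and SEMA3B (-0.15, SE 0.130, edgeR adjusted p = 0.476) did not pass the test, and their vehicle and DOX libraries overlapped. SEMA3A passed in the fit over all 12 libraries (0.0468) and without HSC3 DOX replicate 1 (0.00917, log2 fold change -0.23), both edgeR adjusted p. The summed class 3 level went from 47.2, 47.6 and 46.6 CPM per kb with vehicle to 24.8, 21.5 and 21.4 CPM per kb with DOX, of which SEMA3C made up 56.1%.

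Class 3 members on the same chromosome did not all pass the test. SEMA3F and SEMA3B lie 78.5 kb apart on chromosome 3, and SEMA3F fell whereas SEMA3B did not pass the test. On chromosome 7, SEMA3C, SEMA3E, SEMA3A and SEMA3D lie in this order on the minus strand within chr7:80742538-85187056 (GENCODE v44, GRCh38). The gaps between them are 2441, 307 and 503 kb, and genes outside the family that lie there were not looked at. The outer genes, SEMA3C and SEMA3D, fell in HSC3, whereas SEMA3A between them did not pass the test and SEMA3E had hardly any counts.

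Of the 6 class 4 ligands, 4 fell, beside 15.4% of all genes. SEMA4B, the most abundant of them, fell from 131, 138 and 122 CPM to 65.2, 70.9 and 72.6 CPM, a log2 fold change of -0.91 (SE 0.0729, edgeR adjusted p = 6.25e-06) with non-overlapping groups. SEMA4D fell from 17.6, 17.7 and 16.3 CPM to 6.65, 8.06 and 7.12 CPM (-1.24, SE 0.117, edgeR adjusted p = 2.02e-05). SEMA4A fell by 0.47 (SE 0.0937, edgeR adjusted p = 0.00326) and SEMA4C by 0.64 (SE 0.174, edgeR adjusted p = 0.0177) on the log2 scale, the latter with an adjusted p above 0.05 in 4 of the 6 fits that left out a library. SEMA4F (-0.34, SE 0.130, edgeR adjusted p = 0.0746) and SEMA4G (0.15, SE 0.439) did not pass the test. SEMA4F passed in the fit over all 12 libraries (0.0207), with counts per molecule (0.0454) and without HSC3 DOX replicate 1 (0.00976), all edgeR adjusted p.

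The largest fall of the family was in SEMA5A, a transmembrane ligand with thrombospondin repeats. It went from 4.27, 6.07 and 6.35 CPM (493, 499 and 758 counts) to 0.836, 0.608 and 0.422 CPM (124, 82 and 51 counts), an 8.92-fold lower level with a log2 fold change of -3.16 (SE 0.274, edgeR adjusted p = 1.14e-05). SEMA6D, a ligand of plexin A1, fell from 2.96, 3.14 and 2.95 CPM to 0.728, 0.727 and 0.397 CPM, a log2 fold change of -2.29 (SE 0.278, edgeR adjusted p = 0.000125). Both were lowly expressed, and in both the lowest vehicle library was more than 3 times the highest DOX library. In the HSC3 DOX libraries 17.2, 8.93 and 11.3 counts were estimated to stand for 1 molecule. The DOX counts of both genes therefore stand for far fewer molecules. Under the other settings, counts per molecule among them, the log2 fold change was -3.18 to -3.14 for SEMA5A and -2.33 to -2.28 for SEMA6D. SEMA6A, SEMA6B and SEMA6C did not pass the test, with SEs of 1.16, 0.323 and 1.16 that allowed no statement on their direction.

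Among the receptors, 5 of 8 plexins tested fell, beside 15.4% of all genes. PLXNC1 was 15.3, 14.6 and 12.4 CPM with vehicle and 3.48, 4.70 and 4.62 CPM with DOX. It was 3.31-fold lower (log2 fold change -1.73, SE 0.155, edgeR adjusted p = 1.41e-05), and 9.88% of its exons lie under genes on the opposite strand. PLXND1, the receptor of SEMA3E, fell from 11.7, 9.94 and 9.62 CPM to 3.50, 2.66 and 3.65 CPM (-1.68, SE 0.159, edgeR adjusted p = 2.07e-05). PLXNB3, a receptor of SEMA5A, fell from 5.18, 5.80 and 5.35 CPM to 1.73, 3.10 and 2.53 CPM (-1.15, SE 0.217, edgeR adjusted p = 0.00224); 20.4% of its exons lie under SRPK3 on the same strand, so its counts may be uncertain. PLXNA1 (-0.52, SE 0.121, edgeR adjusted p = 0.00785, and 0.0534 without HSC3 vehicle replicate 1) and PLXNA3 (-0.57, SE 0.106, edgeR adjusted p = 0.00195) fell by less. PLXNA2 (0.13, SE 0.0838), PLXNB1 (-0.087, SE 0.127) and PLXNB2 (-0.33, SE 0.127, edgeR adjusted p = 0.0820) did not pass the test. In PLXNA1, PLXNB1 and PLXNB2 the lowest library was HSC3 DOX replicate 1, and without it PLXNB1 was at 0.053 and PLXNB2 at -0.17 (edgeR adjusted p = 0.0294).

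The neuropilins changed little. NRP1 was 309, 272 and 289.9 CPM with vehicle and 265, 250.4 and 258 CPM with DOX, a log2 fold change of -0.17 (SE 0.0641) that did not pass the test (edgeR adjusted p = 0.0662), although every DOX library was below every vehicle library. It passed with library totals (0.0299), in the fit over all 12 libraries (0.0241), with counts per molecule (0.0493) and without HSC3 DOX replicate 1 (0.00967), all edgeR adjusted p. NRP2 fell from 24.4, 27.7 and 24.4 CPM to 20.3, 20.1 and 21.2 CPM (-0.31, SE 0.0901, edgeR adjusted p = 0.0234), a call that was lost in 5 of the 6 fits that left out a library, with adjusted p up to 0.135.

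SEMA7A was the only member that rose in HSC3 cells. It was 13.4, 14.0 and 12.9 CPM with vehicle and 15.8, 20.2 and 16.1 CPM with DOX, without overlap, a 1.29-fold higher level with a log2 fold change of 0.37 (SE 0.120, edgeR adjusted p = 0.0411). The call was near the threshold. The log2 fold change stayed between 0.24 and 0.44 when each library was left out, but the adjusted p was 0.0577 to 0.157 in 5 of these 6 fits and 0.00349 without HSC3 DOX replicate 1. It was 0.0684 with library totals and 0.0156 with DESeq2.

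**Figure D2:**
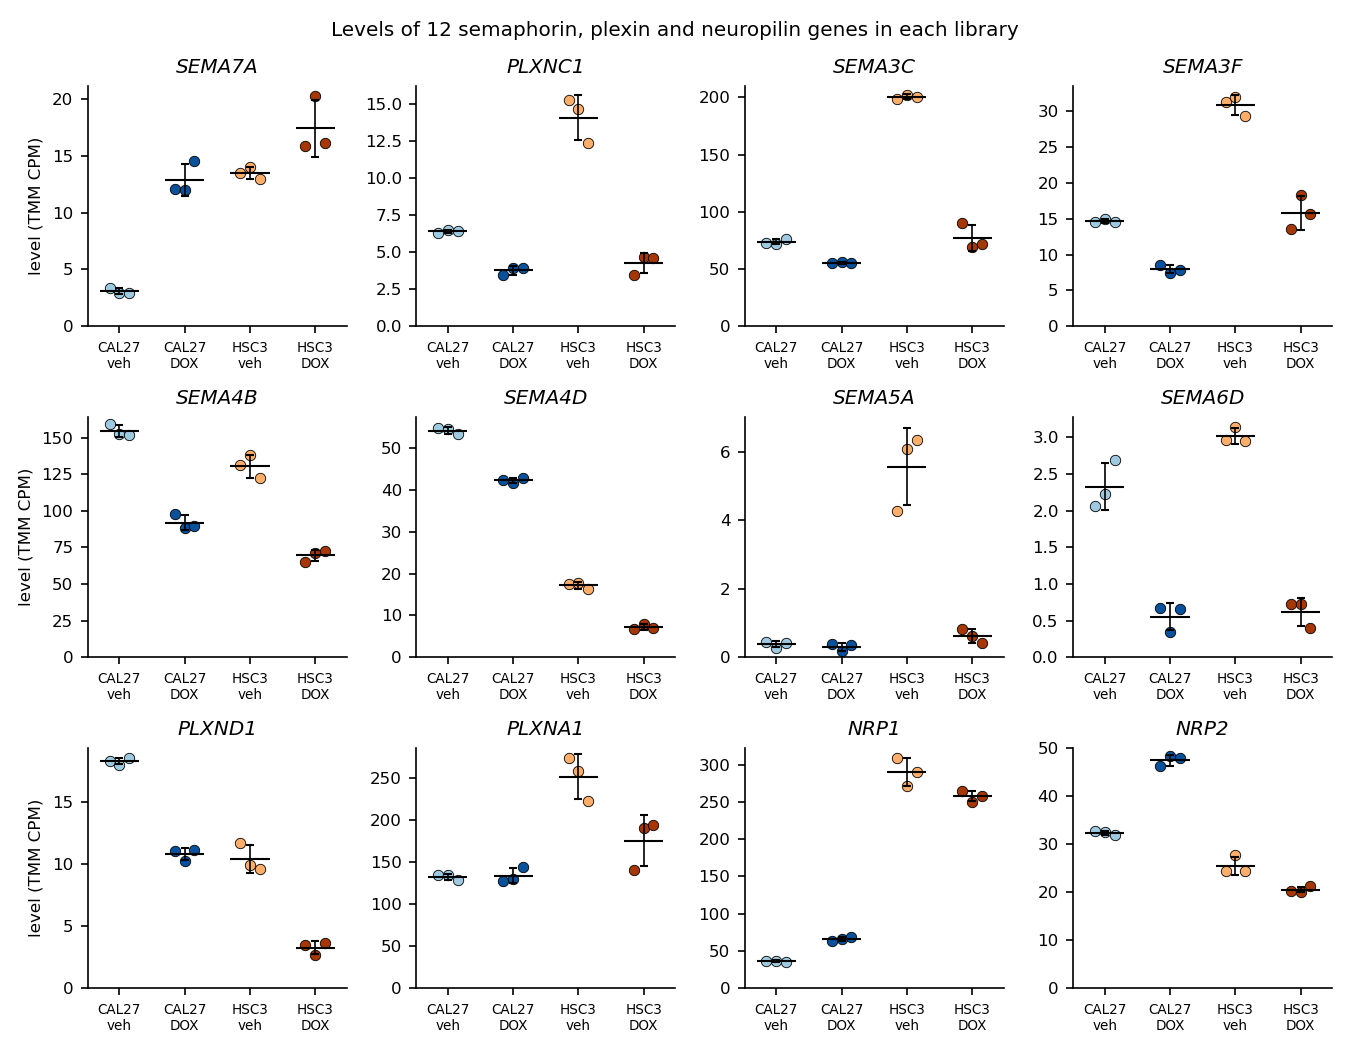
Levels of 12 members in CPM (linear axes from 0) in each of the 12 libraries, by cell line and treatment (veh, vehicle); points are libraries, horizontal lines are means and bars are the SD of 3 libraries. In HSC3 the DOX libraries of PLXNC1, SEMA3C, SEMA5A and SEMA6D lie well below the vehicle libraries, those of SEMA7A lie above them, and NRP1 and NRP2 lie higher with DOX in CAL27 and lower in HSC3.

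The upstream sequences of SEMA7A, of its receptor PLXNC1 and of SEMA5A, the member with the largest fall in HSC3 cells, are shown because they stand for the rise, for the receptor that moved the other way and for the lowest point of the response; they were chosen after their values had been seen. Each is the 250 bases before the start of the gene, 5′ to 3′ on the strand of the gene, from RefSeq on GRCh38.p14, at chr15:74433959-74434208 (minus strand), chr12:94148327-94148576 (plus strand) and chr5:9546076-9546325 (minus strand). Capitals mark the GC box GGGCGG on either strand, with overlapping matches joined.
SEMA7A: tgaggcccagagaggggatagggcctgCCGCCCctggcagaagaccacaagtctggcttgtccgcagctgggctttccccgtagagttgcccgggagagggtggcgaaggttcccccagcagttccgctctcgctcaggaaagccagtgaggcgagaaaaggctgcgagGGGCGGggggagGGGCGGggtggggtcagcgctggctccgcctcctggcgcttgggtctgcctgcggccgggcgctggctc
PLXNC1: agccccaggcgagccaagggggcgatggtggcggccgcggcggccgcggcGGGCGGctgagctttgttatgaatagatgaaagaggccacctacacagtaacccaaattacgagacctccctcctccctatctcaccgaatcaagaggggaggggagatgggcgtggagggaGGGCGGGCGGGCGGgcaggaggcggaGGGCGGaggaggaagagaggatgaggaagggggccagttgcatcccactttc
SEMA5A: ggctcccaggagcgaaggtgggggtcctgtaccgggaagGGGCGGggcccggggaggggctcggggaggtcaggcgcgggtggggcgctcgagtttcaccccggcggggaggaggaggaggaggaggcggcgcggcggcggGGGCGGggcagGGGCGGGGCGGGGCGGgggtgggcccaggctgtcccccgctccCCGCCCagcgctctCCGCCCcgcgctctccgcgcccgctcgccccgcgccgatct
These windows are 70.0%, 65.2% and 82.0% G or C and hold 3, 5 and 7 matches.

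RefSeq promoter entries were found for 27 of the 31 members, with 48 windows in all because several genes have more than 1 start; NRP1, SEMA3A, SEMA6A and SEMA6B had no entry. Over all members 62.5% of windows held the GC box, and 42.6% of 35116 promoters of the same length did. The letters TTCNNNGAA, the GAS element bound by STAT dimers, were in 1 of the 48 windows (at SEMA3E) and in 6.57% of all promoters. The letters TGANTCA, an AP-1 element, were in 1 window, at another start of PLXNC1, and in 6.57% of all promoters, and GGAATG, bound by TEAD factors, was in 6 windows (12.5%) and in 11.9% of all promoters. All were searched on both strands. A match is a stretch of letters and was not tested as a site.

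In CAL27 cells all 31 members could be fitted. As a description, 18 passed the same threshold as lower (beside 21.8% of all 19239 genes tested) and 5 as higher (beside 22.6%), and past 2-fold there were 4 lower (beside 5.11%) and 1 higher (beside 1.31%). All DOX libraries were below the vehicle libraries for 19 members and above them for 6, beside 25.9% of all genes in each direction. SEMA7A was the member past 2-fold higher. It was 3.39, 2.95 and 2.97 CPM with vehicle and 12.1, 12.01 and 14.5 CPM with DOX, a 4.14-fold higher level and a log2 fold change of 2.05 (SE 0.0946). This is the value that chose the family, and among well-counted genes past the threshold without overlap it ranked 2, after FOSL1 (2.09) and before CPA4 (2.02). With DOX the CAL27 libraries were near the HSC3 vehicle libraries in SEMA7A, at 12.9 ± 1.41 and 13.4 ± 0.540 CPM.

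Both neuropilins were higher with DOX in CAL27. NRP1 was 37.1, 37.3 and 35.8 CPM with vehicle and 63.6, 65.7 and 69.4 CPM with DOX, a log2 fold change of 0.85 (SE 0.0457). NRP2 was 32.7, 32.6 and 31.9 CPM with vehicle and 46.2, 48.3 and 48.0 CPM with DOX (0.55, SE 0.0449). The other higher members were SEMA3B (0.55, SE 0.155), from 1.39 to 2.04 CPM, and PLXNA2 (0.39, SE 0.0610), from 31.9 to 41.9 CPM.

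The lower members in CAL27 included semaphorins of every class but class 7. SEMA6D was 2.07, 2.22 and 2.69 CPM with vehicle and 0.669, 0.339 and 0.652 CPM with DOX, a log2 fold change of -2.06 (SE 0.212) with no overlap of the groups. SEMA6C was 1.63, 1.72 and 1.80 CPM and then 0.755, 0.756 and 0.730 CPM (-1.20, SE 0.169). The other 2 past 2-fold, SEMA5B (47, 75 and 36 counts, then 8, 0 and 10) and SEMA3G (35, 40 and 27 counts, then 4, 20 and 10), rested on few counts. Class 4 ligands were lower by 0.36 to 0.81 for SEMA4A, SEMA4B, SEMA4C and SEMA4D, and SEMA4B was 159, 152 and 152 CPM with vehicle and 97.6, 88.4 and 89.9 CPM with DOX. SEMA3C (-0.41, SE 0.0411), SEMA3D (-0.95, SE 0.128) and SEMA3F (-0.89, SE 0.0700) were lower, and SEMA3A (0.043, SE 0.0389) and SEMA3E (0.11, SE 0.0845) were nearly level. Of the receptors, PLXNC1 (-0.77, SE 0.0951) and PLXND1 (-0.76, SE 0.0620) were the lowest, followed by PLXNA3 (-0.56), PLXNB3 (-0.45), PLXNB2 (-0.43) and PLXNB1 (-0.35), and PLXNA1 was level (0.013, SE 0.0453).

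Set side by side, 27 members were tested in both lines, whose vehicle and DOX libraries are separate. As a description, 12 were past the threshold as lower in both (PLXNA3, PLXNB3, PLXNC1, PLXND1, SEMA3C, SEMA3D, SEMA3F, SEMA4A, SEMA4B, SEMA4C, SEMA4D and SEMA6D), beside 8.62% of the 17164 genes tested in both, and NRP2 was past it in opposite directions, beside 3.56%. SEMA7A was past it as higher in both, beside 7.82%, and the choice of the family had fixed its CAL27 rise. SEMA6D was the member lower past 2-fold in both lines, beside 1.14% of all genes. Several members were close in the 2 lines, such as PLXNA3 (difference of the log2 fold changes, HSC3 minus CAL27, -0.0086, SE 0.119), SEMA3F (-0.077, SE 0.139) and SEMA4B (-0.16, SE 0.0854). SEMA5A (-2.84, SE 0.459), SEMA7A (-1.68, SE 0.161), NRP1 (-1.02, SE 0.0776), SEMA3C (-0.97, SE 0.109), PLXNC1 (-0.95, SE 0.181), PLXND1 (-0.91, SE 0.162), SEMA4D (-0.88, SE 0.101) and NRP2 (-0.86, SE 0.0908) had a lower log2 fold change in HSC3. Of the 27 members, 21 had a lower log2 fold change in HSC3, beside 52.7% of all genes. They include SEMA7A, whose CAL27 rise was fixed by the choice of the family. Some had a difference smaller than its SE, such as SEMA6A (-1.29, SE 1.33), SEMA6C (-0.20, SE 0.911) and PLXNA3. Members with a higher log2 fold change in HSC3 included SEMA6B (0.56, SE 0.214), PLXNB1 (0.26, SE 0.146) and SEMA4A (0.22, SE 0.107). These differences include the CAL27 response and were not tested.

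**Figure D3:**
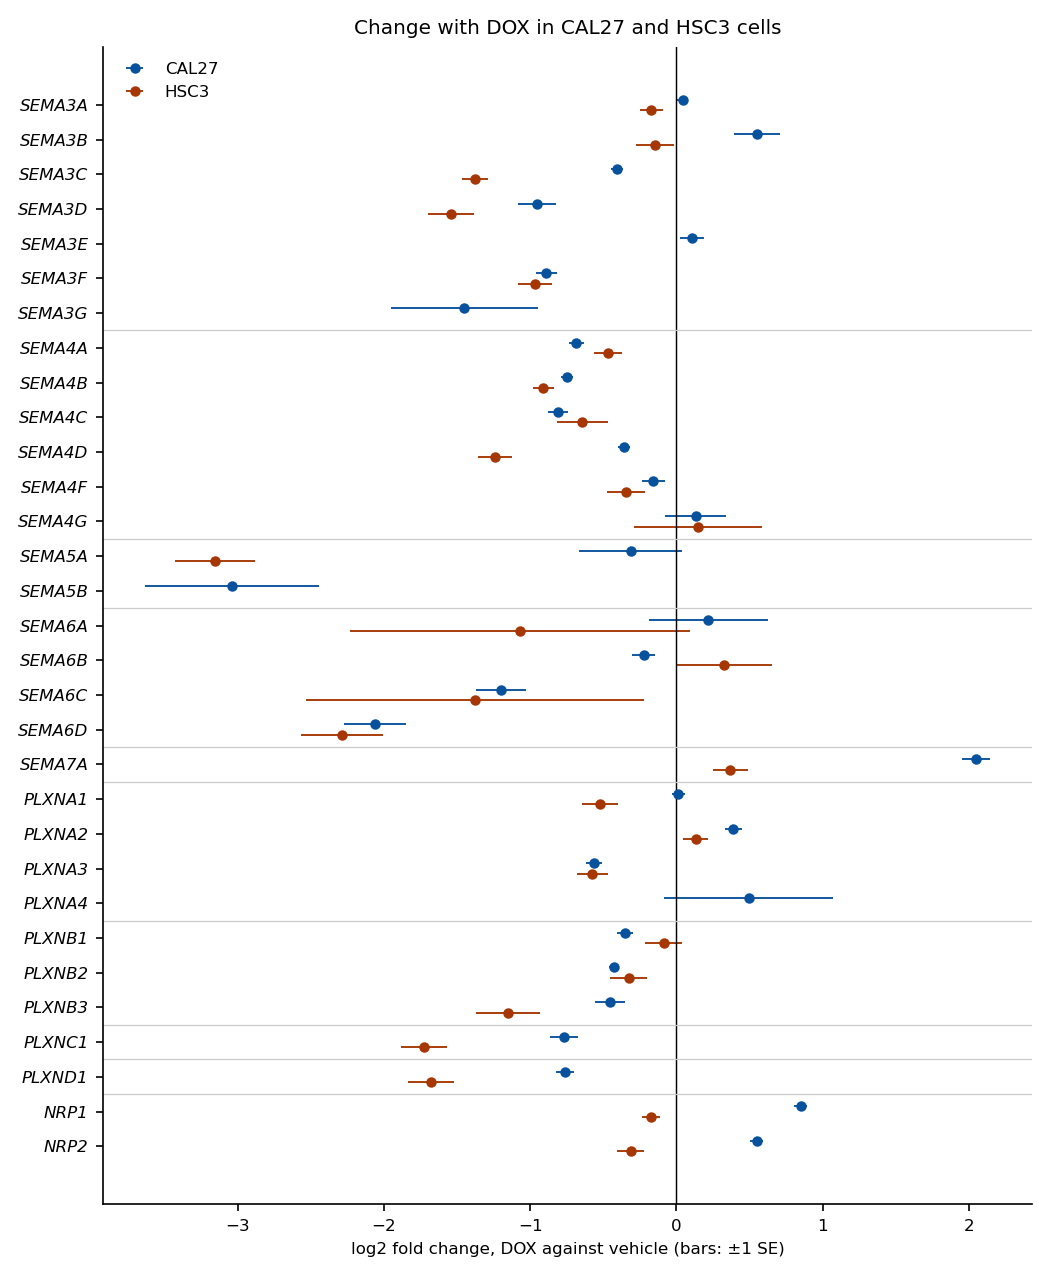
Log2 fold change with DOX of each member in CAL27 (blue) and HSC3 (brown), with bars of 1 SE and lines between the classes; the 4 members not tested in HSC3 have a CAL27 point alone. Most points lie left of 0 in both lines, SEMA7A lies right of 0 in both at 2.05 and 0.37, and NRP1 and NRP2 lie on opposite sides.

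The partners of these receptors include co-receptors, GTPases and their regulators, kinases and adaptors, cytoskeletal effectors, proteases and VEGF ligands. Of a list of 65 such pathway genes, 57 were tested in HSC3 cells, where 8 rose (14.0%, beside 13.0% of all genes) and 15 fell (26.3%, beside 15.4%), with a median log2 fold change of -0.00413. In CAL27 cells 61 were tested, 22 were higher (36.1%, beside 22.6%) and 12 lower (19.7%, beside 21.8%). Between the lines at baseline, 32 of 61 were higher in HSC3 (52.5%, beside 34.7% of all genes) and 24 lower (39.3%, beside 37.1%). The lower genes include CNTN2, RND2 and FES, which passed the count filter through CAL27 alone.

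Of the co-receptors, ERBB2, which associates with plexin B1, fell in HSC3 from 75.0 ± 2.87 to 53.3 ± 6.83 CPM (log2 fold change -0.50, SE 0.0968, edgeR adjusted p = 0.00280). PTK7, a co-receptor of plexins in development, fell by 0.79 (SE 0.0917, edgeR adjusted p = 9.21e-05). MET, a partner of plexin B1, was 936 ± 32.0 and 1039 ± 63.8 CPM and did not pass (0.15, SE 0.0619, edgeR adjusted p = 0.107), nor did L1CAM, a partner of NRP1 (-0.027, SE 0.105), or ITGA1 (-0.11, SE 0.142) and ITGB1 (0.0028, SE 0.0540), subunits of an integrin bound by SEMA7A. At baseline ITGB1 was 6.61-fold higher in HSC3, at 1736 ± 38.9 against 263 ± 2.08 CPM (log2 difference 2.73, SE 0.0369, edgeR adjusted p = 9.07e-15), and L1CAM 7.27-fold higher (2.86, SE 0.0616, edgeR adjusted p = 4.05e-13). In CAL27, ITGB1 was higher with DOX (0.46, SE 0.0373), as were MET (0.32, SE 0.0367) and L1CAM (0.20, SE 0.0741), and ITGA1 (-0.31, SE 0.0657) and ERBB2 (-0.32, SE 0.0539) were lower.

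Of the VEGF ligands that bind neuropilins, 3 of 4 tested fell in HSC3, namely VEGFA, VEGFC and PGF, beside 15.4% of all genes. VEGFA fell from 177 ± 5.08 to 127 ± 4.42 CPM (-0.49, SE 0.0587, edgeR adjusted p = 0.000117) and VEGFC from 161 ± 2.57 to 114 ± 7.89 CPM (-0.50, SE 0.0669, edgeR adjusted p = 0.000252). In CAL27 VEGFA was level (-0.0021, SE 0.0480) and VEGFC was higher (0.65, SE 0.0664). With vehicle, VEGFC was 161 CPM in HSC3 and 14.1 CPM in CAL27, a log2 difference of 3.52 (SE 0.0594, edgeR adjusted p = 5.63e-14).

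Among the proteases that process semaphorins, FURIN, which cleaves class 3 ligands, rose in HSC3 (0.57, SE 0.135, edgeR adjusted p = 0.00843) and was higher in CAL27 (0.50, SE 0.0411). PCSK5 was lower in CAL27, from 15.7 to 7.14 CPM (-1.14, SE 0.0680), and far lower in HSC3 than in CAL27 with vehicle (-4.61, SE 0.147, edgeR adjusted p = 1.33e-11). Of the 17 GTPases and their regulators tested in HSC3, 4 rose, beside 13.0% of all genes, and 4 fell, beside 15.4%. RND3, a small GTPase that binds plexins, rose (0.56, SE 0.0673, edgeR adjusted p = 0.000121) and was higher in CAL27 (0.64, SE 0.0438), whereas RAC1 fell in HSC3 (-0.65, SE 0.0557) and was lower in CAL27 (-0.41, SE 0.0439), and SH3BP1, a RAC GAP that binds plexin D1, fell in HSC3 (-0.86, SE 0.192, edgeR adjusted p = 0.00643). FARP1, a RAC exchange factor, was lower in CAL27 with DOX (-0.42, SE 0.0604) and lower in HSC3 than in CAL27 with vehicle (-2.51, SE 0.114, edgeR adjusted p = 4.01e-10).

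Of the 14 cytoskeletal effectors tested in HSC3 cells, 2 rose with DOX, beside 13.0% of all genes, and 1 fell, beside 15.4%. MICAL2, an actin-oxidizing enzyme of the family that binds plexin A, was 29.8 ± 1.502 CPM in CAL27 vehicle and 506 ± 14.97 CPM in HSC3 vehicle (log2 difference 4.09, SE 0.0489, edgeR adjusted p = 3.73e-15). With DOX it was 90.6 ± 3.31 CPM in CAL27 (1.60, SE 0.0483), and in HSC3 it rose to 709 ± 60.9 CPM (0.48, SE 0.0731, edgeR adjusted p = 0.000545). LIMK1, which phosphorylates cofilin, rose in HSC3 (0.69, SE 0.0956, edgeR adjusted p = 0.000291) and was higher in CAL27 (0.54, SE 0.0414). DPYSL2 (CRMP2), the intracellular mediator of SEMA3A, fell in HSC3 from 119 ± 5.48 to 57.9 ± 4.63 CPM (-1.05, SE 0.0781, edgeR adjusted p = 3.79e-06). DPYSL2 was also 11.0-fold higher in HSC3 than in CAL27 with vehicle. GIPC1, which binds the tail of NRP1, was lower in HSC3 than in CAL27 with vehicle (-1.36, SE 0.0570, edgeR adjusted p = 1.88e-10).

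**Figure D4:**
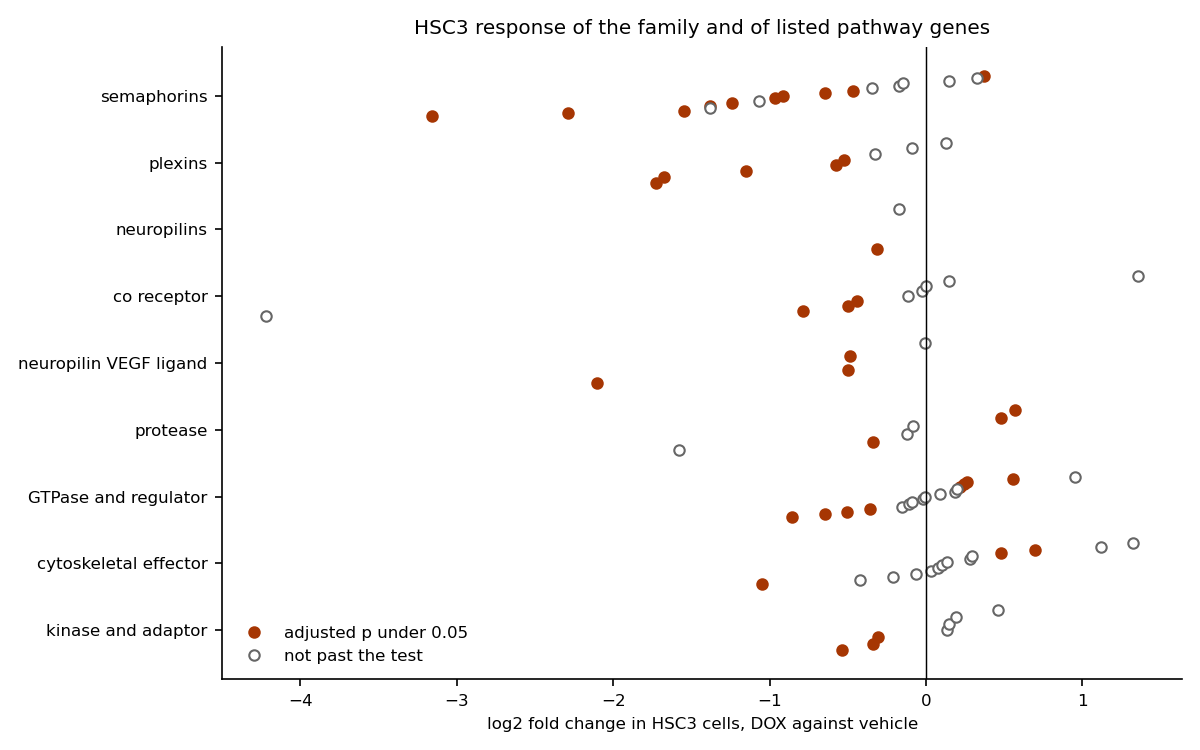
Log2 fold change with DOX in HSC3 cells of each tested semaphorin, plexin and neuropilin and of each tested pathway gene, by role; filled points passed the test at an adjusted p under 0.05 and open points did not. The filled semaphorins and plexins lie left of 0 except SEMA7A, and filled pathway genes lie on both sides.

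Squamous epithelial markers moved with DOX in both lines beside the family. Of the 8 markers, 6 fell and 1 (EPCAM) rose in HSC3, beside 15.4% and 13.0% of all genes, and 6 were lower and 1 higher in CAL27, beside 21.8% and 22.6%. Their summed level went from 6139 to 2956 CPM in HSC3 and from 6413 to 3086 CPM in CAL27. TP63 was 805 and 349 CPM in HSC3 and 851 and 424 CPM in CAL27. Their part in the change of the family was not tested. Markers of other cell types were lower in level, and some moved with DOX. The most abundant leukocyte marker was CD14, at 4.70 CPM in CAL27 vehicle and 1.03 CPM in HSC3 vehicle, with CD3E at 0 in HSC3 vehicle, and of the endothelial markers CDH5 was 14.6 CPM in CAL27 vehicle and the others were each under 1 CPM. The 5 fibroblast markers summed to 13.7 CPM in CAL27 vehicle and 4.65 CPM in HSC3 vehicle, led by COL1A1. Of the 4 neuronal markers, SYT1 was the most abundant, at 17.8 and 9.35 CPM. With DOX in HSC3, COL1A1 rose from 4.59 to 7.62 CPM, and ITGAM and SYT1 (to 7.10 CPM) fell. In CAL27, COL1A2, LUM, PDGFRB, CDH5, VWF, ITGAM and SYT1 were past the threshold as lower and TUBB3 as higher, with CDH5 at 9.97 CPM and SYT1 at 15.8 CPM with DOX. Their part in the change of the family was not tested either.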

How the data were processed

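RNA was sequenced from the 2 lines with 3 libraries in each of 4 groups. The paper's methods give RNA extraction with TRIzol, the TruSeq Stranded mRNA kit and the GRCh38 genome, and the submitters' processing notes name FastQC 0.11.9, STAR 2.7.9a and featureCounts of Subread 2.0.1. The authors deposited whole-number counts per gene symbol without normalization, in 1 table for each line. The strand setting and the handling of duplicates and multiply mapped reads are not given in the sources used here. The paper attaches a release number to the genome name, but the annotation used for counting is not named. Reads of overlapping antisense genes may therefore not be separated. In the CAL27 table the DOX columns are numbered 4 to 6 and carry no replicate number of the labels. Each library was counted as 1 replicate, with equal counts on 0.526% to 3.34% of genes in any of the 30 pairs within a line. The paper's methods say that the cells were cultured in triplicate, so p-values measure the spread between such cultures of 1 line.

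Counts were analysed in R 4.3.3 with edgeR 4.0.16 (TMM, filterByExpr at its default minimums of 10 per library and 15 in all, robust glmQLFit and glmQLFTest, two-sided), with 1 fit for HSC3 DOX against vehicle, 1 for CAL27 and 1 for HSC3 against CAL27 vehicle. Genes passed at an adjusted p under 0.05 (Benjamini-Hochberg, over every gene in the fit), and 2-fold means a log2 fold change above 1 in size. The SE is the log2 fold change divided by the square root of F. The difference between the lines came from a fit of the 4 group means. Levels are CPM scaled by TMM over all 12 libraries, divided by the union exon length (GENCODE v44, GRCh38) where genes are compared. Counts per molecule came from the share of genes with 8 to 16 counts expected that had 0 in a library. This estimate and the fits were tried on simulated data of a simpler kind. Libraries as uneven in counts per molecule as those of HSC3 DOX were not simulated. Folds are left out where no library of the compared group exceeds 3 counts.

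The members and lists were chosen with earlier results of these data known. The pathway list (65 genes) and the markers of squamous epithelial, leukocyte, endothelial, fibroblast and neuronal cells were written from general knowledge. Named genes are MUC1, all members, MET, ERBB2, ITGA1, ITGB1, L1CAM and VEGFA, up to 3 pathway genes in each direction of each fit with the largest change (mean log2 CPM of at least 3, groups not overlapping), and the genes next to SEMA7A in the CAL27 ranking. The other VEGF family members, EPCAM and the most abundant markers were named after their values were seen. For CAL27 and HSC3 vehicle, deviations from the group means correlated weakly at the same replicate number, at 0.101, 0.133 and 0.191. At different numbers the correlations were -0.115 to -0.00188. The labels state no pairing of the lines, and the reported baseline fit used no block. Alternatives were DESeq2 1.42.0, its size factors, library totals, no filter, a fit over all 12 libraries, counts divided by counts per molecule, an adjusted p under 0.01, the replicate number as a block, the longest transcript and each library left out in turn.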

Additional observations from a re-analysis of the deposited data

Results flagged for a closer look

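For NRP1 and NRP2, the libraries of the 2 lines lay on opposite sides with DOX. Every CAL27 DOX library was above every CAL27 vehicle library, and every HSC3 DOX library was below every HSC3 vehicle library, in both genes. The difference of the log2 fold changes, HSC3 minus CAL27, was -1.02 for NRP1 and -0.86 for NRP2; it was not tested. In HSC3 alone NRP1 did not pass the test (edgeR adjusted p = 0.0662), although it passed in some other settings (down to 0.00967, without HSC3 DOX replicate 1). NRP2 passed (0.0234), a call lost in 5 of the 6 edgeR fits that left out a library, with adjusted p up to 0.135, and with the replicate block (0.0560).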

How the results depend on the processing

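Counts of members that fell in HSC3 were 13 to 19 under the other settings and 12 to 19 without each library (15 as reported), while 10.4% to 21.9% and 10.9% to 19.3% of all genes were lower in those fits (15.4% as reported). Past 2-fold they were 8 and 7 to 9. Members that rose numbered 0 with library totals, at an adjusted p under 0.01 and with the replicate block, beside 11.6%, 7.77% and 10.8% of all genes. Without each library they numbered 0 to 2 (1 as reported), beside 8.03% to 17.5% of all genes (13.0% as reported). Pathway genes that rose in HSC3 were 14 in a fit over all 12 libraries, 5 at an adjusted p under 0.01 and 4 to 15 without each library (8 as reported). The shares of all genes that rose in those fits were 16.1%, 7.77% and 8.03% to 17.5% (13.0% as reported). In CAL27, the fit over all 12 libraries gave 1 member lower past 2-fold, 12 pathway genes higher and 6 lower (4, 22 and 12 as reported). In that fit 13.3% of all genes were higher and 11.3% lower (22.6% and 21.8% as reported). The cause of these shifts was not tested. Without HSC3 DOX replicate 1, PLXNB1 (0.053) and SEMA4G (-0.23) changed sign, within ranges of -0.18 to 0.053 and -0.23 to 0.33 without each library, and neither had passed the test. Between the lines, SEMA6D lost its call in several settings, with adjusted p up to 0.552, SEMA4F and PLXNB1 lost theirs with library totals, SEMA4F also without CAL27 vehicle replicate 1, and PLXNB3, SEMA4G and SEMA6A passed in some settings.

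The HSC3 numbers did not pair vehicle with DOX (correlations -0.19, 0.32 and -0.32). With the replicate block 14 members fell in HSC3, beside 14.0% of all genes, and NRP2 and SEMA7A had edgeR adjusted p of 0.0560 and 0.0578. In the baseline comparison 13 members were higher and 13 lower with the block, beside 34.0% and 36.1% of all genes. SEMA6D was the one call that changed. No paired analysis was possible because, for the CAL27 response, the DOX columns are numbered 4 to 6 and the samples 1 to 3. The longest transcript in place of the union of exons moved 26 CAL27 and 20 HSC3 levels per kb by more than their SD. SEMA3E, SEMA3G, SEMA5B, PLXNA4, SEMA6A and SEMA6C had too few counts in HSC3 cells for a statement on their response.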
